A study of Drosophila melanogaster with 18 samples.

Results

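A set of 9 genes of the endoplasmic reticulum (ER) was followed in whole-fly RNA sequencing of w1118, a white-eyed laboratory strain of Drosophila melanogaster. They are Hsc70-3, Gp93, Pdi, ERp60, CaBP1, prtp, Calr, Cnx99A and Xbp1, and all 9 were found by their current symbols among the 23932 features of the count table. Each of the 3 groups holds 6 libraries, 18 in all: flies of day 2 fed 1 µM cycloheximide (CHX) in the food, flies of day 2 fed vehicle, and flies of day 0, where the labels call both vehicle and day 0 flies controls. Every group carried the same w1118 background and was kept at 24C on sugar and yeast food, and CHX blocks the elongation step of protein translation (PT). Sex, the number of flies in a library and whether replicates came from separate cultures are not given in the labels, so p-values measure the spread between these libraries, which may be technical in part. In each group the codes of 3 libraries carry a hyphen (D0-1, D2Vh-1, D2Cx-1) and the codes of 3 do not (D01, D2Vh1, D2Cx1). What this name series stands for is not given, and it is used below as a label only.

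Proteins that enter the secretory pathway fold in the ER with the help of chaperones. Hsc70-3 is the fly BiP, the Hsp70 of the ER, and Gp93 is its Hsp90. Pdi, ERp60, CaBP1 and prtp belong to the protein disulfide isomerases, which make and rearrange disulfide bonds, and prtp is also known as a ligand on dying cells that are taken up by phagocytes. Calr (calreticulin) and Cnx99A (calnexin) are lectin chaperones that hold glycoproteins until they are folded. When unfolded proteins build up, the kinase and nuclease Ire1 splices the Xbp1 mRNA, and the spliced form encodes a transcription factor that raises ER chaperone genes. Counts per gene do not separate spliced from unspliced Xbp1 mRNA, so the values below are the sum of both. In egg-laying females the fat body and the follicle cells of the ovary secrete large amounts of yolk and eggshell protein.

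All positions are those of the annotation BDGP6.54, of the BDGP6 build named for the files. Hsc70-3 lies at X:11801696-11807117 and prtp at X:11716756-11719894. Gp93 lies at 3R:27948711-27952151, Calr at 3R:9628691-9630851 and Cnx99A at 3R:29315254-29319644. Pdi lies at 3L:15137738-15142840, CaBP1 at 2L:16354886-16356735, ERp60 at 2R:11887568-11890979 and Xbp1 at 2R:21143545-21145750. The exons of 3 of them overlap a gene on the opposite strand: Pdi shares 501 bases with the antisense gene asRNA:CR45396, Gp93 shares 101 bases with CG4951 and ERp60 shares 36 bases with cuff. As the use of strand in counting is not given, reads from these stretches could not be assigned to either partner.

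Libraries held 21495600 to 38519200 counts in features, and every count of the 9 genes was at least 2268, so counting error was small beside the differences between libraries. The vehicle libraries differed from the others in composition. Their TMM factors, which scale libraries as if most features did not change, ran from 1.24 to 1.31. They ran from 0.823 to 0.929 in CHX libraries and from 0.892 to 0.916 at day 0. In vehicle over day 0, however, 82.9% of all features passed the test given below, so this scaling is open to doubt there. Summed markers of eggshell (14 genes) lay at 5332 to 16258 CPM (counts scaled to a common library size) in vehicle libraries, against 12.6 to 81.3 CPM with CHX and 174 to 342 CPM at day 0. Summed markers of muscle (15 genes) lay at 2460 to 3527 CPM in vehicle libraries, against 80050 to 93558 CPM with CHX and 75302 to 87977 CPM at day 0. None of these markers was at 0 in any group, and the 9 markers of testis and accessory gland summed to at most 9.39 CPM in any library. CPM denotes scaled counts throughout, with the TMM factors applied. In whole flies, fewer cells of a type and less RNA per cell cannot be told apart.

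Per kilobase of exon, the scale on which genes can be compared, Calr stood highest and prtp or Cnx99A lowest. In CHX libraries the order of mean levels was Calr with 335 ± 29.1, Pdi with 273 ± 21.8, ERp60 with 241 ± 14.3, Xbp1 with 188 ± 9.03, Hsc70-3 with 183 ± 15.3, prtp with 119 ± 9.79, Gp93 with 109 ± 3.76, CaBP1 with 59.9 ± 5.25 and Cnx99A with 51.3 ± 2.91 CPM per kilobase (SD, n = 6). At day 0 the order was the same save for Xbp1 with Hsc70-3 and prtp with Gp93, 2 pairs of neighbours whose ranges overlapped in both groups. In vehicle libraries the order was Calr with 269 ± 62.2, ERp60 with 265 ± 62.5, Pdi with 227 ± 55.1, Hsc70-3 with 202 ± 38.9, Xbp1 with 154 ± 32.4, Gp93 with 98.3 ± 28.7, CaBP1 with 70.8 ± 18.8, Cnx99A with 68.0 ± 7.86 and prtp with 49.3 ± 5.66 CPM per kilobase. There the only neighbours whose ranges did not overlap were Cnx99A and prtp. Prtp thus stood above Cnx99A in the 6 CHX and 6 day 0 libraries and below it in the 6 vehicle libraries. The ratio of their levels per kilobase, which no scaling of a library can change, was 1.99 to 2.67 with CHX, 0.668 to 0.807 with vehicle and 1.90 to 2.37 at day 0.

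**Figure D1:**
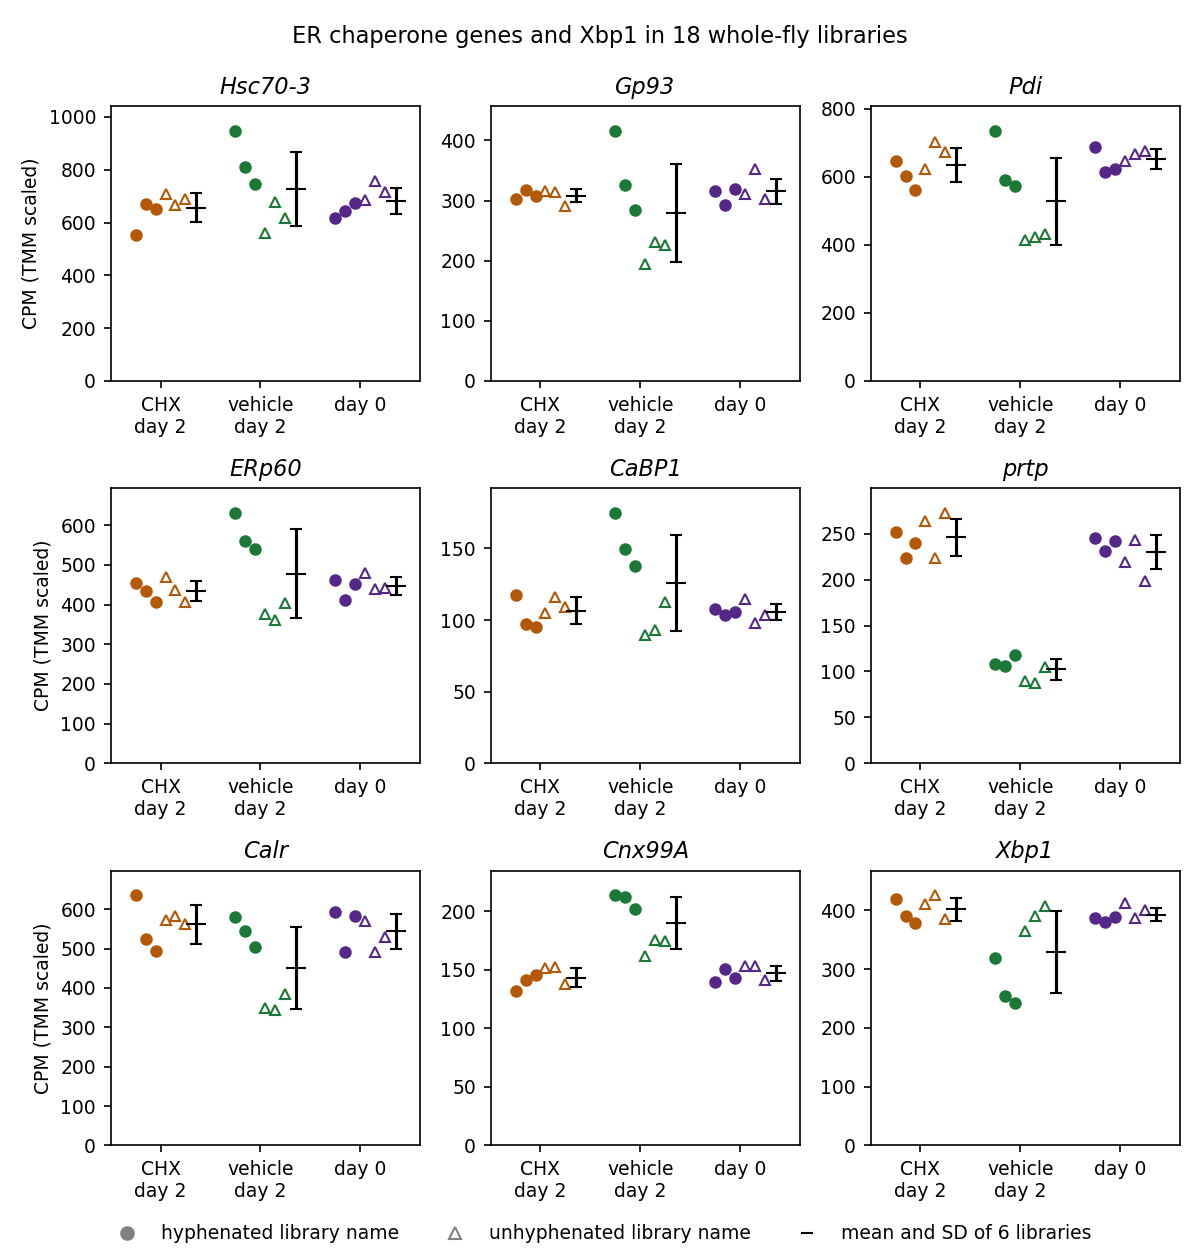
Levels of the 9 genes in CPM (TMM scaled, linear axes from 0), with 1 point per library for CHX day 2, vehicle day 2 and day 0 and with the mean and SD of 6 libraries in black. Filled circles are hyphenated and open triangles unhyphenated libraries. Prtp is low and Cnx99A high in every vehicle library, and the vehicle libraries of most other genes fall into a hyphenated and an unhyphenated set.

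Summed over the 9 genes, levels were 3493 ± 134 CPM with CHX, 3212 ± 574 CPM with vehicle and 3517 ± 102 CPM at day 0 (SD, n = 6 each). Vehicle libraries ranged from 2601 to 4122 CPM and took in the whole range of the other groups. As a share of unscaled counts the vehicle mean was the highest in place of the lowest. Shares were 0.303% ± 0.0101 in CHX libraries, 0.407% ± 0.0631 in vehicle libraries and 0.318% ± 0.00820 at day 0. The spread was also widest in vehicle libraries for each gene: the coefficient of variation was 3.47% to 8.77% with CHX, 11.5% to 29.2% with vehicle and 2.98% to 8.35% at day 0.

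Vehicle flies of day 2 were compared with day 0 flies to follow the first days of adult life, the time of the PT rise. Prtp fell and Cnx99A rose without overlap between the libraries, Pdi, Calr and Xbp1 fell by smaller amounts, and Hsc70-3, Gp93, ERp60 and CaBP1 did not pass the test. In numbers, 1 of the 9 genes rose and 4 fell at an adjusted p under 0.05 (edgeR quasi-likelihood test, Benjamini-Hochberg over 11051 features). Over all features 82.9% passed, 41.8% higher and 41.1% lower. Groups did not overlap in 2 of the 9 genes, against 66.3% of all features. The median log2 fold change was -0.20 over the 9 genes and -0.0043 over all features.

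Prtp had 224, 246 and 272 CPM (lowest, median and highest library) with CHX, 87.0, 105 and 118 CPM with vehicle and 199, 237 and 246 CPM at day 0. All vehicle libraries lay below all others. The log2 fold change of vehicle over day 0 was -1.17 (SE 0.085, adjusted p = 1.75e-10), a level 2.25-fold lower. It was the largest change among the 9 genes, although 73.0% of all features had a higher log2 fold change, which leaves prtp inside the lower part of the whole distribution.

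Cnx99A had 132, 143 and 152 CPM with CHX, 162, 189 and 213 CPM with vehicle and 140, 147 and 154 CPM at day 0. Vehicle libraries were again set apart, here above the rest. Cnx99A was 1.29-fold higher in vehicle than in day 0 libraries (log2 fold change 0.37, SE 0.077, adjusted p = 0.000206). The other lectin chaperone, Calr, had 495, 567 and 635 CPM with CHX, 345, 444 and 580 CPM with vehicle and 492, 551 and 594 CPM at day 0. Vehicle overlapped both other groups, and the log2 fold change over day 0 was -0.29 (SE 0.11, adjusted p = 0.0233).

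Among the disulfide isomerases other than prtp, Pdi had 560, 635 and 703 CPM with CHX, 413, 503 and 734 CPM with vehicle and 614, 656 and 686 CPM at day 0. Its log2 fold change in vehicle over day 0 was -0.32 (SE 0.12, adjusted p = 0.0170), yet the highest value of all groups was that of a vehicle library. ERp60 had 405, 436 and 470 CPM with CHX, 360, 471 and 630 CPM with vehicle and 411, 446 and 479 CPM at day 0. Day 0 libraries lay inside the vehicle range, with a log2 fold change of 0.08 (SE 0.11, adjusted p = 0.513). CaBP1 had 95.1, 107 and 117 CPM with CHX, 89.7, 125 and 175 CPM with vehicle and 97.8, 104 and 115 CPM at day 0. Its log2 fold change of 0.24 (SE 0.12, adjusted p = 0.0804) did not pass.

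Of the general chaperones, Hsc70-3 had 551, 667 and 708 CPM with CHX, 561, 712 and 947 CPM with vehicle and 619, 680 and 756 CPM at day 0. Gp93 had 290, 311 and 318 CPM with CHX, 194, 257 and 416 CPM with vehicle and 293, 313 and 353 CPM at day 0. In both genes the vehicle range enclosed that of day 0. The log2 fold changes over day 0 were 0.08 for Hsc70-3 (SE 0.11, adjusted p = 0.471) and -0.20 for Gp93 (SE 0.12, adjusted p = 0.143).

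Xbp1, the regulator, had 379, 401 and 425 CPM with CHX, 243, 342 and 407 CPM with vehicle and 380, 389 and 413 CPM at day 0. The lowest vehicle libraries were below every other library and the highest were inside the day 0 range. The log2 fold change over day 0 was -0.27 (SE 0.095, adjusted p = 0.0136).

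All but the fall of prtp rested in part on the scaling, the name series or single libraries. With library sizes in place of TMM factors the median of all features moved to 0.49, and 6 of the 9 genes then passed as higher and 1 as lower. Under that scaling Pdi, Calr, Xbp1 and Gp93 took the opposite sign (log2 fold changes of 0.17, 0.20, 0.23 and 0.29), whereas prtp (-0.68) and Cnx99A (0.86) kept theirs. Cnx99A did not pass with upper quartile factors (0.15, adjusted p = 0.0787) or in unhyphenated libraries alone (0.19, adjusted p = 0.0866). Relative to the median of all features, the median of the 9 genes was nearly the same under TMM (-0.196) and library sizes (-0.200). Calr lost its call without day 0 replicate 4 (adjusted p = 0.0542) and without vehicle replicates 4, 5 or 6 (0.0721, 0.0684 and 0.0564), and Pdi without vehicle replicates 4, 5 or 6 (0.0559, 0.05003 and 0.0514). Gp93 passed without vehicle replicate 1 (adjusted p = 0.00715), and CaBP1 without day 0 replicate 4 (0.0477) or vehicle replicate 4 or 5 (0.0209 and 0.0266).

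CHX flies were compared with vehicle flies of the same day to see which of these changes were present when PT was repressed. The comparison uses the same vehicle libraries as the one above, so a mirror image of it is in part built in. Prtp was higher with CHX (log2 fold change 1.27, SE 0.085, adjusted p = 4.89e-11), a level 2.41-fold above vehicle, and Cnx99A was lower (-0.40, SE 0.077, adjusted p = 8.00e-05), each without overlap. Calr (0.34, SE 0.11, adjusted p = 0.00907), Xbp1 (0.30, SE 0.095, adjusted p = 0.00649) and Pdi (0.28, SE 0.12, adjusted p = 0.0319) were also higher with CHX, with overlap. Gp93 (0.16), Hsc70-3 (-0.14), ERp60 (-0.12) and CaBP1 (-0.22) did not pass, with adjusted p of 0.105 to 0.313. In total 4 of 9 genes rose and 1 fell, while 83.4% of all features passed, 42.0% higher and 41.3% lower. Libraries did not overlap in 2 of 9 genes, against 66.0% of all features.

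With library sizes only, where the median of all features was -0.53, Pdi, Calr, Xbp1 and Gp93 again took the opposite sign (-0.27, -0.21, -0.25 and -0.38), and prtp (0.72) and Cnx99A (-0.95) did not. In a fit of unhyphenated libraries alone Cnx99A did not pass (-0.21, adjusted p = 0.0578), unlike in the fit by name series given below. Pdi did not pass without CHX replicates 4, 5 or 6 (adjusted p = 0.0507, 0.0750 and 0.0667) or vehicle replicates 4, 5 or 6 (0.0979, 0.0886 and 0.0889). Gp93 passed as higher without vehicle replicate 1 (0.0143), and CaBP1 as lower without vehicle replicate 4 or 5 (0.0281 and 0.0355).

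**Figure D2:**
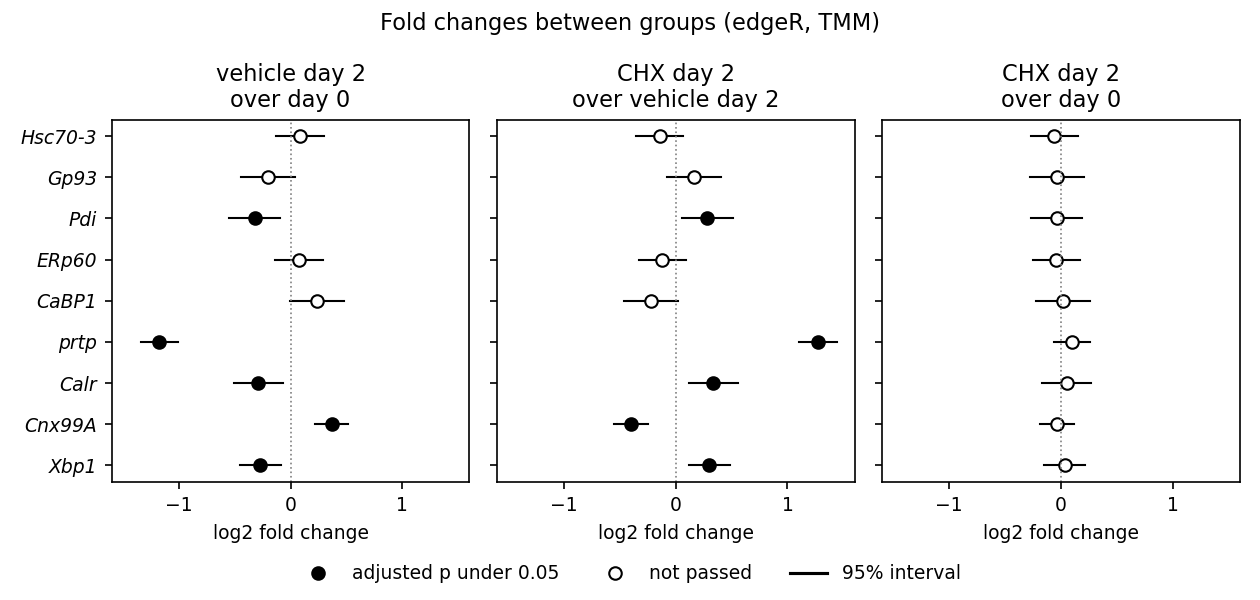
Log2 fold changes of the 9 genes (x axis) with 95% intervals from edgeR for vehicle day 2 over day 0, CHX day 2 over vehicle day 2 and CHX day 2 over day 0, where filled points passed at an adjusted p under 0.05. Prtp (-1.17 and 1.27) and Cnx99A (0.37 and -0.40) stand out in the first and second panels, which share the vehicle libraries; the signs of Pdi, Calr, Xbp1 and Gp93 there turn round when library sizes replace TMM factors. In the third panel no gene passed.

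CHX flies of day 2 were last set against day 0 flies, 2 days apart in age. None of the 9 genes passed in edgeR (0 at an unadjusted p under 0.05, lowest unadjusted p = 0.250), and 0 passed in DESeq2 or limma-voom. Log2 fold changes ran from -0.06 for Hsc70-3 to 0.10 for prtp, and every 95% interval lay between -0.28 and 0.27. In all 9 genes the 2 groups overlapped. The background was low as well, since 0.552% of all features passed and 1.05% did not overlap.

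Within the vehicle group, the hyphenated and unhyphenated libraries differed in most of these genes. Chaperone genes were higher and Xbp1 was lower in the 3 hyphenated libraries. At an adjusted p under 0.05, 6 of the 9 genes were higher and 1 was lower (edgeR on 6 cells of 3 libraries each), against 6.28% of all features, 2.81% higher and 3.47% lower. The libraries of the name series did not overlap in 9 of 9 genes, against 18.8% of all features. Median log2 fold changes, hyphenated over unhyphenated, were 0.58 over the 9 genes and 0.03 over all features.

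Gp93 had 416, 326 and 284 CPM in hyphenated vehicle libraries, against 194, 231 and 226 CPM in unhyphenated ones (log2 fold change 0.66, SE 0.12, adjusted p = 0.00280). CaBP1 had 175, 149 and 138 CPM against 89.7, 93.2 and 113 CPM (0.64, SE 0.12, adjusted p = 0.00238), and ERp60 had 630, 561 and 540 CPM against 376, 360 and 403 CPM (0.60, SE 0.10, adjusted p = 0.000947). Each of these genes was about 1.5-fold higher in the hyphenated set, and the lowest hyphenated library stood clear of the highest unhyphenated one. Calr had 580, 546 and 504 CPM against 350, 345 and 384 CPM (0.60, SE 0.11, adjusted p = 0.00288), and Pdi had 734, 591 and 574 CPM against 413, 422 and 431 CPM (0.58, SE 0.11, adjusted p = 0.00195). Hsc70-3 had 947, 809 and 747 CPM against 561, 677 and 619 CPM (0.43, SE 0.11, adjusted p = 0.0250). Its call was lost without vehicle replicates 1, 2, 4 or 6 (adjusted p = 0.0933, 0.0590, 0.136 and 0.0668).

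Cnx99A had 213, 212 and 202 CPM in hyphenated vehicle libraries, against 162, 176 and 174 CPM in unhyphenated ones, and prtp had 108, 106 and 118 CPM against 90.1, 87.0 and 104 CPM. Neither passed, with log2 fold changes of 0.29 (adjusted p = 0.0586; 0.0341 without CHX replicate 1) and 0.24 (adjusted p = 0.263). The 2 genes that set vehicle apart from the other groups most clearly were the 2 that did not pass between the name series. In both, the name series still did not overlap (unadjusted p of 0.0040 for Cnx99A and 0.0442 for prtp in edgeR).

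Xbp1 ran the other way, with 319, 255 and 243 CPM in hyphenated vehicle libraries, against 365, 390 and 407 CPM in unhyphenated ones. The log2 fold change was -0.51 (SE 0.11, adjusted p = 0.00561), a level 1.42-fold lower. Unhyphenated vehicle libraries lay close to day 0 (380 to 413 CPM), and the fall against day 0 was -0.50 within the hyphenated series (adjusted p = 0.000308) and -0.05 within the unhyphenated series (adjusted p = 0.691). The difference between those falls did not pass (-0.46, SE 0.15, adjusted p = 0.112; -0.59 and 0.0171 without vehicle replicate 1).

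The same split was not found in the other groups. In CHX libraries 0 of 9 genes passed between the name series and in day 0 libraries 0 of 9 passed, in edgeR, with 0 at an unadjusted p under 0.05 in either. Over all features 0.299% passed with CHX and 0.489% at day 0. The name series did not overlap in 0 of 9 genes with CHX and in 1 of 9 at day 0, against 15.8% of all features in each. That gene was Hsc70-3, with 619, 644 and 676 CPM in hyphenated day 0 libraries, against 685, 756 and 717 CPM in unhyphenated ones.

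**Figure D3:**
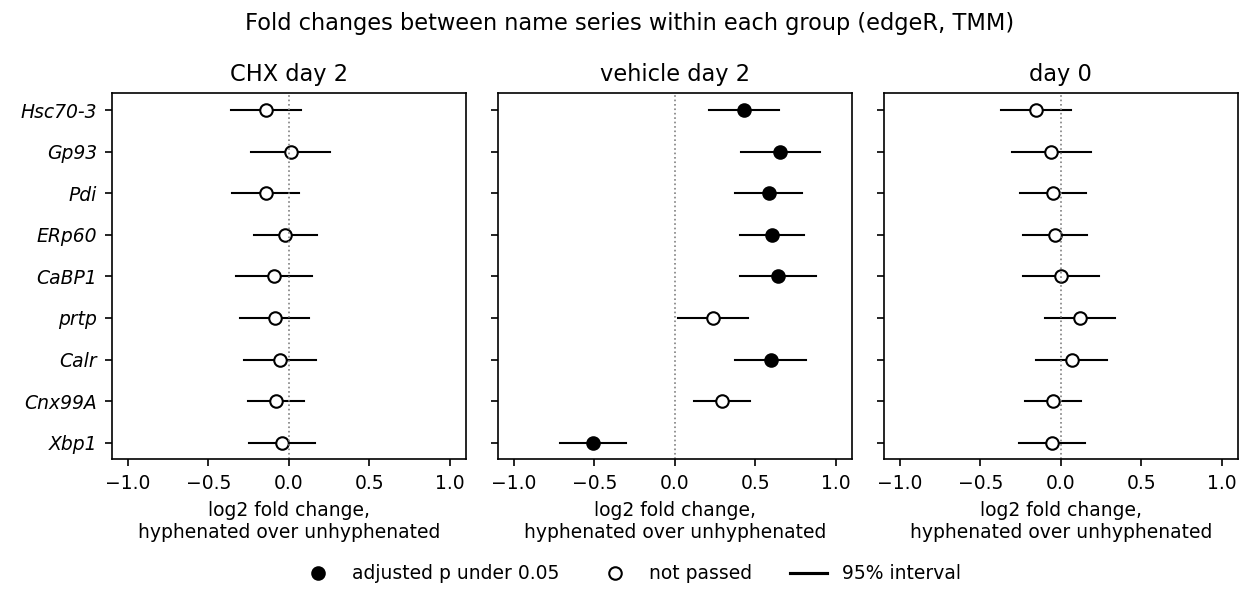
Log2 fold changes of hyphenated over unhyphenated libraries (x axis) with 95% intervals from edgeR, within CHX day 2, vehicle day 2 and day 0 (3 libraries of each series per group), where filled points passed at an adjusted p under 0.05. Within vehicle 6 chaperone genes are higher by 0.43 to 0.66 and Xbp1 is lower by 0.51, and in the other groups every interval takes in 0.

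Because of this split, the group comparisons differed by name series. Of vehicle over day 0, 4 genes rose and 2 fell within the hyphenated series (79.1% of all features passed), and 0 rose and 5 fell within the unhyphenated series (75.5%). Hsc70-3 (0.37), ERp60 (0.39), CaBP1 (0.54) and Cnx99A (0.54) rose and prtp (-1.11) and Xbp1 (-0.50) fell in the hyphenated series. In the unhyphenated series prtp (-1.23), Pdi (-0.65), Gp93 (-0.57), Calr (-0.56) and ERp60 (-0.25) fell. ERp60 therefore passed in opposite directions, with adjusted p of 0.00201 and 0.0296. The difference between the name series itself passed for 5 genes, all higher in the hyphenated series: Gp93 (0.71, SE 0.18, adjusted p = 0.0301), CaBP1 (0.64, 0.17, 0.0460), ERp60 (0.64, 0.14, 0.0168), Pdi (0.63, 0.15, 0.0240) and Hsc70-3 (0.59, 0.16, 0.0493). Over all features 3.41% passed this test, 1.53% as higher. The adjusted p values were near the threshold, and leaving out 1 library moved the count to between 0 and 6. It fell to 0 to 3 without any 1 of 14 libraries (day 0 replicates 1 to 6, CHX replicates 2 to 6 and vehicle replicates 1, 2 and 4) and was 4 to 6 without any 1 of the other 4.

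For CHX over vehicle, 2 genes rose and 4 fell within the hyphenated series (79.1% of all features passed), and 4 rose and 1 fell within the unhyphenated series (76.9%). Cnx99A (-0.58), CaBP1 (-0.58), Hsc70-3 (-0.42) and ERp60 (-0.42) fell and prtp (1.11) and Xbp1 (0.54) rose in the hyphenated series. Prtp (1.43), Calr (0.67), Pdi (0.66) and Gp93 (0.50) rose and Cnx99A (-0.21) fell in the unhyphenated series. The difference between the name series passed for CaBP1 (-0.74, SE 0.17, adjusted p = 0.0200), Pdi (-0.73, SE 0.15, adjusted p = 0.00960), Calr (-0.65, SE 0.16, adjusted p = 0.0299) and ERp60 (-0.62, SE 0.14, adjusted p = 0.0185), 4 genes lower against 1.96% of all features lower and 3.57% in all. Without CHX replicate 3 the count was 1, and without CHX replicate 2, 4 or 5 or vehicle replicate 4 it was 2. For CHX over day 0 the difference between name series passed for 0 genes and for 0% of all features in edgeR (0 of 9 genes at an unadjusted p under 0.05).

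The level of Xbp1 relative to the chaperones does not depend on how a library is scaled. Xbp1 CPM amounted to 8.39%, 7.73% and 7.81% of the summed CPM of the 8 chaperone genes in hyphenated vehicle libraries, and to 16.3%, 16.3% and 16.6% in unhyphenated vehicle libraries. The 12 CHX and day 0 libraries lay between these sets, at 12.3% to 13.6% with CHX and 12.1% to 13.0% at day 0. The vehicle mean of 12.2% ± 4.63 (SD, n = 6) was close to those of CHX (13.0% ± 0.441) and day 0 (12.6% ± 0.393), although no vehicle library had a share near it. Per kilobase, Hsc70-3 stood at 1.77 to 1.89 times Xbp1 in hyphenated and 0.908 to 1.04 times Xbp1 in unhyphenated vehicle libraries, against 0.784 to 1.06 with CHX and 0.952 to 1.17 at day 0. This ratio was chosen after its values were seen and was not tested.

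**Figure D4:**
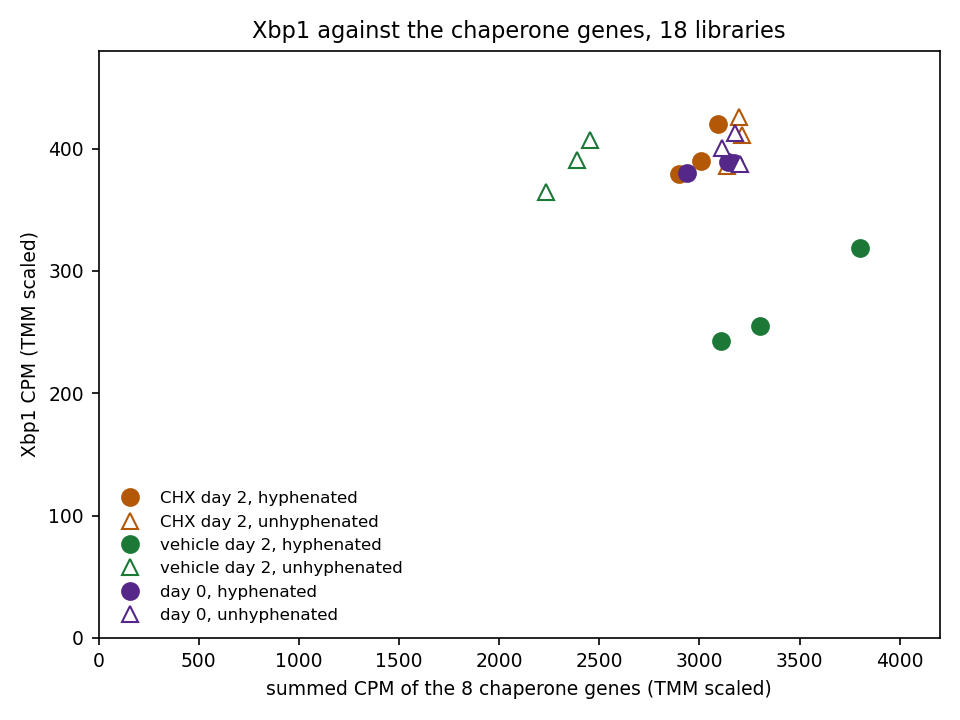
Xbp1 CPM (y axis) against the summed CPM of the 8 chaperone genes (x axis) in the 18 libraries, both TMM scaled with axes from 0, with colours for groups and symbols for name series. CHX and day 0 libraries form 1 cluster at 2899 to 3212 CPM of chaperones, hyphenated vehicle libraries lie to its lower right (3107 to 3803 CPM, Xbp1 243 to 319 CPM) and unhyphenated vehicle libraries to its left (2236 to 2454 CPM, Xbp1 365 to 407 CPM).

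Markers of several organs differed in level between the name series in vehicle libraries, with few past the test. Summed eggshell markers were 13025 ± 5004 CPM in hyphenated and 5745 ± 480 CPM in unhyphenated vehicle libraries (SD, n = 3 each), without overlap, and all 14 markers had a positive log2 fold change. Summed fat body markers (10 genes) were 22656 ± 6343 against 12269 ± 3093 CPM, also without overlap, with 9 of 10 positive. These sums came mostly from Yp1, Yp2, Yp3 and apolpp. Several of the positive genes were barely detected: Fbp1 (0.043 against 0.040 CPM), Fbp2 (0.173 against 0.127 CPM) and Lsp1gamma (0.508 against 0.201 CPM). Of the eggshell list 1 marker passed the test and of the fat body list 2 (Yp2 and apolpp). In gut markers (6 genes) the sums were 5580 ± 2657 against 3484 ± 491 CPM with overlap, with 5 of 6 positive. The gut gene Jon65Aiv rose (1.40, adjusted p = 0.0284) and the gut gene Mal-A1 fell (-1.11, adjusted p = 0.00697). Neuron and photoreceptor markers (8 genes) summed to 1154 ± 255 against 1391 ± 214 CPM, with 0 of 8 positive and a median of -0.42, and muscle markers to 2856 ± 584 against 3057 ± 404 CPM. The part of these markers in the split of the chaperone genes was not tested.

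Other genes of the ER were read from 10 lists of 89 symbols, of which 86 matched a row and 80 were tested. Srp54 and Ubc6 were listed by symbol but are not genes of the ER, and they stayed in all counts. In vehicle over day 0, 34 of the 80 rose and 19 fell, beside 41.8% higher and 41.1% lower among all features. The median of their log2 fold changes was 0.13, beside -0.0043 for all features. In CHX over vehicle 22 rose and 35 fell, beside 42.0% and 41.3% of all features, with a median of -0.13 beside 0.02. The counts differed by name series. Of vehicle over day 0, 39 rose and 12 fell (median 0.26) within the hyphenated series, where 79.1% of all features passed. Within the unhyphenated series 24 rose and 22 fell (median 0.03), where 75.5% of all features passed. Of CHX over vehicle, 12 rose and 41 fell in the hyphenated series (79.1% of all features passed). In the unhyphenated series 29 rose and 25 fell (76.9%). In CHX over day 0, 0 of 80 passed in edgeR, beside 0.552% of all features. The counts also depend on scaling: with upper quartile factors 20 rose in vehicle over day 0, and with library sizes only 62 rose and 6 fell.

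Of the 8 genes of UPR signaling, which hold the sensors of unfolded proteins, 5 rose and 2 fell in vehicle over day 0, beside 41.8% and 41.1% of all features. Within the hyphenated series 3 rose and 1 fell (79.1% of all features passed), and within the unhyphenated series 5 rose and 0 fell (75.5%). PEK, the kinase that slows translation under ER stress, had 121 ± 13.9 CPM with vehicle and 44.6 ± 2.57 CPM at day 0 (log2 fold change 1.44, adjusted p = 4.83e-11). The proteases S2P (1.03) and S1P (0.57), which release Atf6, Atf6 itself (0.38) and Ire1 (0.59, adjusted p = 0.00781) also rose over all libraries, whereas crc, the fly ATF4 (-0.43), and BI-1 (-0.23) fell and PPP1R15 (-0.05) did not pass. With CHX over vehicle the first 5 fell (PEK -1.55, S2P -1.02, S1P -0.78, Ire1 -0.76, Atf6 -0.44) and crc (0.36) and BI-1 (0.25) rose. None of the 8 genes passed in CHX over day 0. Of the 3423 exon bases of crc, 2515 are shared with CG46314 on the same strand. How reads from that stretch were counted is not given, so the values of crc may not be those of crc alone.

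In the remaining lists the larger changes of vehicle over day 0 were of both signs. Ero1L, the oxidase that recharges Pdi, was 71.4 ± 7.59 CPM with vehicle and 35.0 ± 1.42 CPM at day 0 (log2 fold change 1.03), and CG9302, of the isomerase list, rose by 1.67. Sil1, a nucleotide exchange factor of BiP, rose by 1.47, Creld by 0.71 and the glycoprotein sensor Uggt by 0.69. The trimming enzymes GCS1 and GCS2beta rose by 0.60 and 0.52, and the oligosaccharyltransferase subunit CG33303 by 0.65. Stt3A, the catalytic subunit of that enzyme, had 129.9 ± 12.5 CPM with vehicle and 56.7 ± 3.93 CPM at day 0. The signal recognition particle subunit Srp9 rose by 0.66. Srp54, of the same list, rose by 0.85, but it is a splicing factor gene and not the particle subunit Srp54k. Among degradation genes Der-2 (0.63) and Hrd3 (0.53) rose. Ubc6 (-0.56), of the same list, fell, but it is the fly Rad6 and not an enzyme of the ER. The calcium sensor Stim rose by 0.45. The calcium pump SERCA fell most, to 528 ± 101 CPM with vehicle, against 5449 ± 364 CPM at day 0 (-3.37). It is also a pump of muscle, whose markers fell in the same libraries. The part of muscle in the fall of SERCA was not tested. All 3 genes of collagen modification fell (PH4alphaMP -3.12, PH4alphaEFB -1.51 and Plod -1.36), as did wbl (-2.04), TRAM (-0.70) and the COPII GTPase Sar1 (-0.53), while the COPII coat gene Sec13 rose by 0.42 and Sec23 fell by 0.33. With CHX over vehicle the largest values were again those of SERCA (3.36), PH4alphaMP (3.23) and wbl (2.13) among higher genes and CG9302 (-1.71), Sil1 (-1.55) and Stt3A (-1.23) among lower ones.

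**Figure D5:**
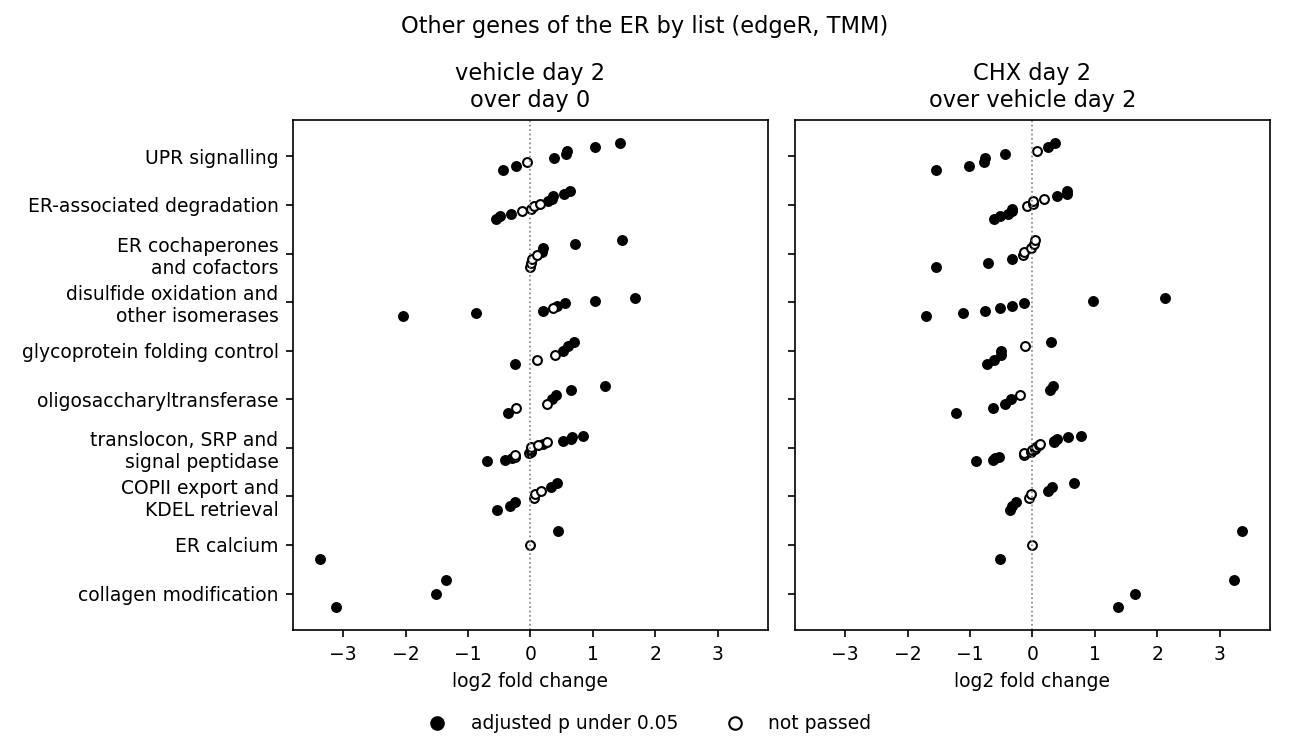
Log2 fold changes (x axis) of the 80 other ER genes tested, by list (y axis), for vehicle day 2 over day 0 and CHX day 2 over vehicle day 2, where filled points passed at an adjusted p under 0.05 (edgeR, TMM). PEK, S2P and Ire1 of the first list lie to the right in vehicle over day 0, SERCA and collagen modification lie far to the left, and the panels, which share the vehicle libraries, mirror each other; with library sizes only 62 of 80 pass as higher in the first panel.

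The split by name series within vehicle reached these genes too. Hyphenated over unhyphenated, 26 of 80 rose and 1 fell, against 2.81% and 3.47% of all features, and 68 of 80 had a positive log2 fold change. Of the translocon, signal recognition and signal peptidase list 10 of 17 rose, of the oligosaccharyltransferase 5 of 7 and of ER cochaperones and cofactors 4 of 8, where Sil1 was the 1 gene that fell (23.2 CPM in hyphenated and 41.3 CPM in unhyphenated libraries). Sec61alpha, the pore of the translocon, had 365 and 227 CPM, and Grp170, the large Hsp70 of the ER, had 260.1 and 185 CPM. In edgeR 0 of 8 genes of UPR signaling passed (median -0.14), as did 0 of 12 of ER-associated degradation (median 0.09) and 0 of 3 of ER calcium (median -0.01). Ire1 was lower in hyphenated libraries, as Xbp1 was, without passing (47.0 and 73.3 CPM, adjusted p = 0.0845), where day 0 libraries averaged 39.7 CPM. In day 0 and in CHX libraries 0 of the 80 genes passed in edgeR, beside 0.489% and 0.299% of all features.

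As a description of likeness, correlations of log2 CPM were taken over the 18 libraries, which share groups and composition. Hsc70-3 was most like GCS2alpha (Pearson r = 0.89), apolpp (0.85), Mtpalpha (0.81), spin (0.81) and NUCB1 (0.80) among 5862 features. Apolpp, which encodes the main lipoprotein of the hemolymph, is a fat body gene. Xbp1 was most like CG32032 (0.96), stv (0.95), CG44325 (0.95), GstE3 (0.94) and CG31705 (0.94). The features most like prtp, named after their values were seen, were Efr (0.99), the glycolytic gene PyK (0.99), Pdha (0.99), the glycolytic gene Eno (0.99) and Fmo-1 (0.98). Prtp was high in the same CHX and day 0 libraries in which muscle markers were high. Summed hemocyte markers (4 genes) were high there too, at 236 ± 55.7 CPM with CHX, 95.2 ± 29.1 CPM with vehicle and 238 ± 33.9 CPM at day 0. Neuron and photoreceptor markers (8 genes) summed to 1905 ± 87.2, 1272 ± 248 and 1877 ± 139 CPM. Of all features 41.1% were lower in vehicle than at day 0. The part of any of these cell types in the level of prtp was not tested. Among the members, r ran from 0.40 to 0.92 within the set of Gp93, Pdi, ERp60, CaBP1 and Calr and was -0.81 between prtp and Cnx99A. Between Xbp1 and the others it ran from -0.79 to 0.53 over all libraries. After the mean of each group and name series was taken away, r between Xbp1 and the others ran from -0.14, with prtp, to 0.83, with CaBP1.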

How the data were processed

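The authors deposited a table of raw counts per feature, not normalized, with 1 column for each of the 18 libraries. The submitters' processing notes list STAR 2.7.10a, HTSeq 0.12.3, bcl2fastq 2.18.0.12 and, as build, BDGP6. How these were set, which annotation was used and whether strand was used were not given in the sources used here. Groups, replicate numbers and name series were read from the labels. Rows without a feature held 8.46% to 11.6% of each column and were left out.

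The main test was edgeR 4.0.16 (R 4.3.3). After filterByExpr, 11051 features remained, with all 9 genes among them. TMM factors were applied, and 1 robust quasi-likelihood model took in the 18 libraries, with group and name series as terms. Name series tests used the 6 cells of group by name series. Names and positions were read from the Ensembl annotation BDGP6.54. P-values were adjusted by Benjamini-Hochberg over all features tested. SE was obtained by dividing the size of a log2 fold change by the root of its F statistic, and 95% intervals are 1.96 SE to either side. For correlations, 2 was the prior count of log2 CPM, and features had to average 20 CPM or more. Overlap of libraries was read from CPM.

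The 9 genes and the lists were chosen with earlier results of these data known. Named from each list were up to 3 genes per comparison that passed, had 5 CPM or more in 1 of the groups compared and changed most, beside all of UPR signaling and the 5 features most like Hsc70-3 and Xbp1. Genes named for the name series were chosen after their values were seen. Pairs of libraries within a group differed by at least 11.3 in chi-square per degree of freedom, so none looked like 1 library under 2 names. The fits were tested on simulated data with few changed genes and without a shift in composition like that of the vehicle libraries. Those runs do not bear on the choice of scaling. Alternatives were other scalings (RLE, upper quartile, library sizes only), DESeq2 1.42.0, limma-voom (limma 3.58.1), other filters on low counts, only the groups compared, no name series term, each name series alone, a replicate block, no 20 most abundant genes, and leaving out each library. Plots came from matplotlib 3.10.9 under Python 3.11.15.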

Additional observations from a re-analysis of the deposited data

Results flagged for a closer look

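Among the 27 sets of 6 values (9 genes in 3 groups), 1 had a library that stood far from the rest by Dixon's criterion: Hsc70-3 was at 551 CPM in CHX replicate 1, against 650 to 708 CPM in the other 5 CHX libraries. Chance gives such a value in about 1 in 20 sets.

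The effect of vehicle over day 0 differed between the name series by a test of the difference itself for Hsc70-3 (0.59 on the log2 scale, hyphenated minus unhyphenated), Gp93 (0.71), Pdi (0.63), ERp60 (0.64) and CaBP1 (0.64). The effect of CHX over vehicle differed for Pdi (-0.73), ERp60 (-0.62), CaBP1 (-0.74) and Calr (-0.65). These 2 sets of differences share the vehicle libraries.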

How the results depend on the processing

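Of 2022 values recomputed under alternatives, 1801 kept their direction and their side of the threshold, or a count within 1.5 times, among them 32 whose sign changed with neither value past the threshold. In vehicle over day 0 and CHX over vehicle, prtp kept its direction and call under the 31 alternatives run, and Cnx99A its direction. Cnx99A lost its call in vehicle over day 0 with upper quartile factors (0.15, adjusted p = 0.0787) and in unhyphenated libraries alone (0.19, 0.0866), and in CHX over vehicle in unhyphenated libraries alone (-0.21, 0.0578). In sensitivity to scaling, library sizes only gave 6 genes higher and 1 lower for vehicle over day 0 (Gp93 0.29, Pdi 0.17, Calr 0.20, Xbp1 0.23, all of opposite sign) and 1 higher and 8 lower for CHX over vehicle (Gp93 -0.38, Pdi -0.27, Calr -0.21, Xbp1 -0.25, all of opposite sign). The other ER genes then counted 62 higher and 6 lower, and 6 higher and 64 lower. Upper quartile factors gave 0 of the 9 genes higher for vehicle over day 0, 20 other ER genes higher there and 22 lower for CHX over vehicle. These shifts follow from the factors, which move the median of all features. No filter beyond 1 count left 2 genes lower for vehicle over day 0.

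Hyphenated libraries alone gave 4 higher and 2 lower for vehicle over day 0 and 2 higher and 4 lower for CHX over vehicle (Pdi -0.073, of opposite sign). Unhyphenated libraries alone gave 0 higher for vehicle over day 0 (ERp60 -0.26, of opposite sign) and 0 lower for CHX over vehicle. Leaving out 1 library at a time, vehicle over day 0 gave 1 to 2 higher and 2 to 5 lower, and CHX over vehicle 1 to 2 lower.

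The difference between name series for vehicle over day 0 counted 3 higher with RLE factors, 0 with upper quartile factors, 2 higher and 1 lower with library sizes only, 0 without a filter, and 0 to 6 higher and 0 to 1 lower leaving out 1 library. That for CHX over vehicle counted 0 lower with upper quartile factors, 1 higher and 2 lower with library sizes only, 2 lower without a filter, and 0 to 1 higher and 1 to 6 lower leaving out 1 library. The split within vehicle counted 5 to 7 genes higher and 1 lower under the 24 alternatives run on it (scalings, filters, no 20 most abundant genes, each library left out; not the other tools or the block). The genes counted differed, as Hsc70-3 was lost in some and Cnx99A gained in 1. The 61 features that passed for CHX over day 0 were 123 with DESeq2, 22 with limma-voom, 25 with at least 10 counts in every library, 26 and 18 in hyphenated and unhyphenated libraries alone, and 37 to 82 leaving out 1 library. Where no cause is given, the cause was not tested.

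With the replicate block, 1 gene was higher and 4 were lower for vehicle over day 0, and no call of a gene changed. Correlations between libraries did not settle whether the numbers pair them. Same-numbered libraries were correlated at -0.29 to 0.54 in their deviations from group means, over 0.1 in 6 of 18 pairs. A library was closest to its own number in 2 of 18.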
